A study of Mus musculus with 16 samples.

Results

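Of the 51912 genes in the deposited table, 10 genes of the sarcoplasmic reticulum calcium cycle are described: Ryr2, Casq2, Casq1, Trdn, Asph, Atp2a2, Pln, Slc8a1, Jph2 and Camk2d. All 10 are protein-coding. They were taken by name, and all were among the 20159 genes that passed the filter on low counts. RNA was sequenced from the whole ventricles of neonatal mice, with 4 libraries in each of 4 groups. WT SH and WT MI were wild-type C57BL/6J mice after sham (SH) surgery or myocardial infarction (MI, ligation of the left anterior descending coronary artery). KO SH and KO MI were Lrrc10-/- mice on a C57BL/6 background after the same operations. Surgery was on postnatal day 1 and tissue was taken 7 days later in all groups. LRRC10 is a cardiomyocyte protein, and the deletion is present in the whole body throughout development. The paper names Jackson Laboratories as the source of the wild-type mice. A difference in colony or substrain between the genotypes cannot be told apart from the deletion here. The sources used here do not say that the wild-type mice were littermates of the Lrrc10-/- mice. They also do not say whether a library came from 1 heart, so p-values measure the spread between these libraries.

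In each heartbeat, a small entry of calcium through the surface membrane opens the ryanodine receptor, and calcium leaves the sarcoplasmic reticulum to trigger contraction. Relaxation follows as the pump SERCA2 returns calcium to this store and the sodium-calcium exchanger carries the remainder out of the cell. The store is immature at birth, and the neonatal heart relies more on the exchanger than the adult heart does. The genes are taken below by role: the release channel (Ryr2), the proteins beside it within the store (Casq2, Casq1, Trdn, Asph), the pump and its brake (Atp2a2, Pln), the exchanger (Slc8a1), the junction of the store with the surface membrane (Jph2) and a kinase that acts on this machinery (Camk2d).

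Promoter windows are shown for the 4 genes on which the results turn, so that the sequence can be read beside the values. Pln, Casq1 and Slc8a1 had the largest changes after injury in Lrrc10-/- mice, and Casq2 the largest in sham-operated Lrrc10-/- mice. Each window is the 250 bases before the annotated start, written 5′ to 3′ on the strand of the gene, from RefSeq on GRCm38.p6. Pln is chr10:53337436-53337685 on the plus strand, Casq1 is chr1:172219896-172220145 on the minus strand, Slc8a1 is chr17:81738388-81738637 on the minus strand and Casq2 is chr3:102086165-102086414 on the plus strand. Capitals mark GATAA on either strand, the core recognised by GATA factors, and in Casq2 the MEF2 consensus, recognised by a family of muscle transcription factors.
Pln: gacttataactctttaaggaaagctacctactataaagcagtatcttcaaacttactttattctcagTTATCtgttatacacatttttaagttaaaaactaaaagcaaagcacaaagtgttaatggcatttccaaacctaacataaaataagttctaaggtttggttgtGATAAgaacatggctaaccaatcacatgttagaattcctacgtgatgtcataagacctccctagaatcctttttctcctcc
Casq1: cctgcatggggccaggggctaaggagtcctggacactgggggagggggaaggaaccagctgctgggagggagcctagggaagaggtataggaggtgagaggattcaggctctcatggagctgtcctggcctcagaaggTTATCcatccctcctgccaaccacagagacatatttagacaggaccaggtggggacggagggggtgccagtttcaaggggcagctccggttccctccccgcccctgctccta
Slc8a1: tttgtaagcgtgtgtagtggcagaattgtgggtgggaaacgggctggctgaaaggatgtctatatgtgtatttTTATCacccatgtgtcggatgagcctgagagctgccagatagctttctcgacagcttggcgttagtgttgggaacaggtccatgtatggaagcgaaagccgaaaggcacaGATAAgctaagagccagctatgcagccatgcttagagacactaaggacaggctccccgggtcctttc
Casq2: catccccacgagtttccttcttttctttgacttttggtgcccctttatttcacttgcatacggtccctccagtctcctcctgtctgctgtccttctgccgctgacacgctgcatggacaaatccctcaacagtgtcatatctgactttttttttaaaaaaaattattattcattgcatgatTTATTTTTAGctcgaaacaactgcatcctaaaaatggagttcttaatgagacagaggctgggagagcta

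A promoter entry was found for 7 of the 10 genes and none for Atp2a2, Trdn and Asph. GATAA occurred in the windows of Pln (2 matches), Slc8a1 (2 matches) and Casq1 (1 match), that is in 3 of 7, where 22.6% of all 32851 windows of this length held it. The Casq2 window held 1 match to the MEF2 consensus, from 69 to 60 bases before the start, as 2.92% of all windows did. CATTCC, recognised by TEAD factors, and the CArG box, recognised by serum response factor, were in none of the 7 windows and in 12.6% and 1.47% of all windows. Both strands were searched for each motif. The windows of Ryr2, Jph2 and Camk2d held none of the 4 motifs.

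The libraries held 33783874 to 57470159 counts (median 45092798), of which 38.1% to 47.8% came from mitochondrially encoded genes. Lrrc10 had 1075 to 1850 counts in WT SH, 1247 to 1355 in WT MI and 0 in every Lrrc10-/- library. The paper states that males and females were equal in number. However, Xist, expressed in females, exceeded 100 CPM (counts relative to the TMM-scaled library size) in 0 of 4 WT SH libraries and in 2 of 4 in each other group. Heart muscle markers were high in every library. The summed level of 10 cardiomyocyte markers was 76391 to 90186 CPM in WT SH, above the ranges of KO SH (68196 to 70120.0), WT MI (68399 to 71605) and KO MI (65415 to 70561). Ttn alone made up most of each sum, at 49181 to 51455 CPM in WT SH and 39379 to 44413 CPM in the other groups. KO MI 2 and KO MI 7 stood apart in skeletal muscle markers, whose sum over 14 genes was 96.7 and 131 CPM there and 7.39 to 23.9 CPM in the other libraries. KO MI 2 was also at the end of its group for several calcium genes, and values without it are given where it decides them.

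Ryr2 (ENSMUSG00000021313, chr13:11567988-12121870, minus strand, GRCm39) encodes the channel through which the store releases calcium. Its level was 4954, 4389, 4583 and 4062 CPM in WT SH and 4268, 4010.1, 3935 and 4086 CPM in KO SH. After injury it was 3489, 3529, 3594 and 3629 CPM in WT MI and 3882, 3002, 3622 and 3209 CPM in KO MI. The injured libraries of each genotype were all below its sham libraries, and the genotypes overlapped after either operation. In the edgeR quasi-likelihood fit over all genes, with Benjamini-Hochberg adjustment, Ryr2 fell by 0.34 on the log2 scale in WT MI against WT SH (SE 0.08, adjusted p = 0.022) and fell by 0.25 in KO MI against KO SH (SE 0.08, adjusted p = 0.040). The second change had adjusted p = 0.125 without KO MI 2 and 0.114 without KO SH 1.

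Casq2 (ENSMUSG00000027861, chr3:101993234-102056307, plus strand, GRCm39), cardiac calsequestrin, is the main calcium buffer within the store. It was 266, 229.7, 251 and 187 CPM in WT SH and 169, 181, 182 and 172 CPM in KO SH. The 4 KO SH libraries were all below the 4 WT SH libraries. Casq2 was 24.7% lower in KO SH (log2 fold change -0.41, SE 0.11, adjusted p = 0.034), and without WT SH 1 the adjusted p was 0.126. After injury the level was 209, 261, 243 and 215 CPM in WT MI and 213, 258, 208 and 171 CPM in KO MI, which overlapped each other and their sham groups. The change with injury was -0.01 in wild-type mice (95% interval -0.23 to 0.21) and 0.27 in Lrrc10-/- mice (0.05 to 0.49, adjusted p = 0.129). DESeq2 placed the latter just under the threshold, with adjusted p = 0.094.

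Trdn (ENSMUSG00000019787, chr10:32956550-33356376, plus strand, GRCm39) encodes triadin, which links calsequestrin to the release channel. It was 310.4, 253, 271 and 239 CPM in WT SH, 240.2, 227, 242 and 225 CPM in KO SH, then 194, 226, 210.4 and 221 CPM in WT MI and 217, 149.98, 179 and 217 CPM in KO MI. As with Ryr2, injured libraries were below the sham libraries of the same genotype without overlap. Trdn fell by 0.33 on the log2 scale with injury in wild-type mice (SE 0.10, adjusted p = 0.083) and fell by 0.29 in Lrrc10-/- mice (SE 0.10, adjusted p = 0.069). Both calls were near the threshold of 0.1 and were kept in 1 of 8 and 2 of 8 fits that each left out a library, with adjusted p up to 0.256 (without WT SH 1) and 0.215 (without KO MI 2).

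Asph (ENSMUSG00000028207, chr4:9448069-9669357, minus strand, GRCm39) gives rise to junctin, a relative of triadin at the release channel, and to an aspartate hydroxylase, and the count does not separate the products. It was 202, 176, 181 and 173 CPM in WT SH, 166, 172, 172 and 161 CPM in KO SH, then 166, 169.6, 169 and 166 CPM in WT MI and 174, 189, 168 and 156 CPM in KO MI. WT SH was above KO SH and above WT MI without overlap. The log2 fold change was -0.13 in each of these comparisons, and neither passed (adjusted p = 0.211 and 0.299).

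Casq1 (ENSMUSG00000007122, chr1:172037459-172049328, minus strand, GRCm39) is the calsequestrin of skeletal muscle. It was 10.98, 10.3, 7.52 and 9.60 CPM in WT SH and 5.59, 8.26, 10.6 and 10.2 CPM in KO SH. In WT MI it was 10.5, 12.3, 10.2 and 7.93 CPM. The KO MI libraries 1, 2, 3 and 7 had 27.3, 113, 34.7 and 10.5 CPM. The first 3 of these were above every library of the other groups and KO MI 7 was within their range. Casq1 rose by 2.43 on the log2 scale in KO MI against KO SH (SE 0.47, adjusted p = 0.0038) and by 2.18 against WT MI (SE 0.46, adjusted p = 0.018). Without KO MI 2 the rises were 1.49 (adjusted p = 0.0050) and 1.24 (adjusted p = 0.031). Fitted to the KO MI and WT MI libraries alone, the comparison lost its call (adjusted p = 0.160). The exact two-sided permutation test of the 4 against 4 Casq1 levels gave p = 0.0571 against KO SH and 0.0857 against WT MI, or 0.120 and 0.143 after adjustment over 40 such tests, where 0.0286 is the smallest p that 4 against 4 can give.

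**Figure D1:**
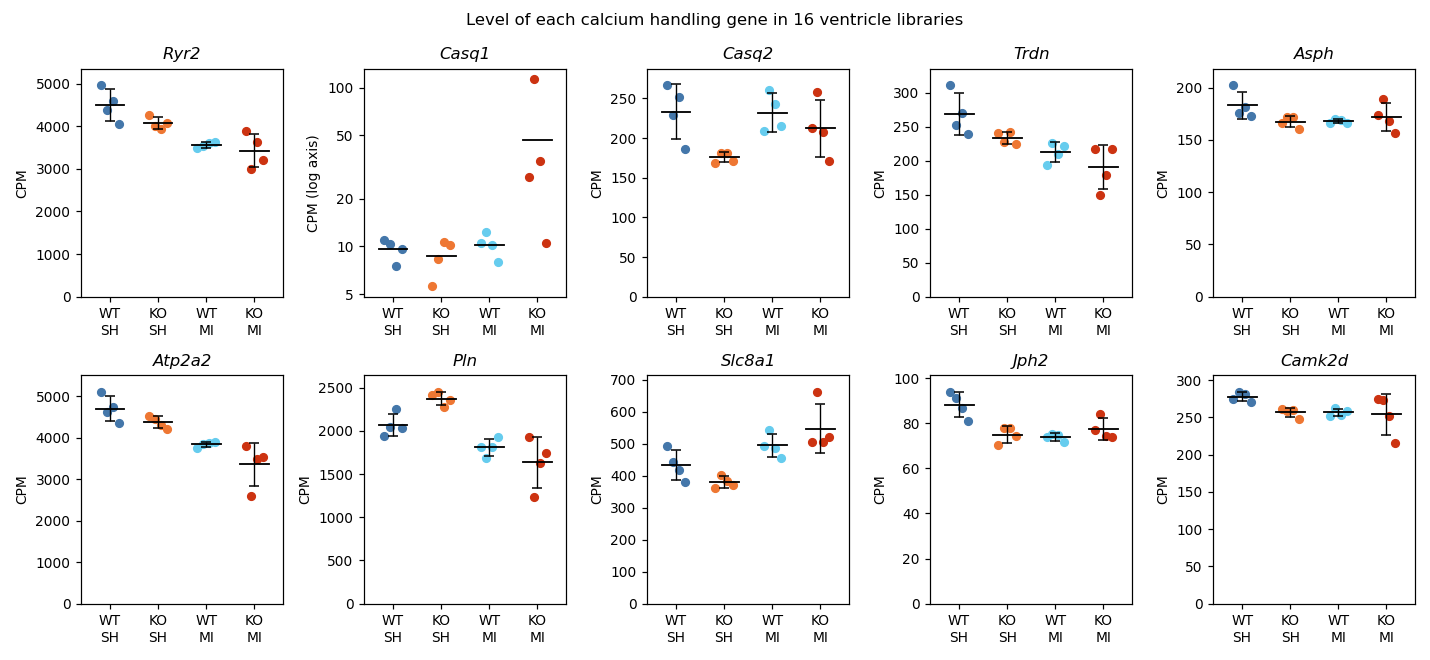
Level in CPM (vertical axis) of each of the 10 genes by group, with 1 point per library, a line at the group mean and bars of 1 SD (n = 4); Casq1 is on a log axis and has no SD bar. Injured libraries of each genotype lie below its sham libraries for Ryr2, Trdn and Atp2a2, KO MI lies above KO SH for Slc8a1, and Casq1 reaches 113 CPM in KO MI 2 while KO MI 7 stays at 10.5 CPM.

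Casq1 and the summed skeletal muscle markers rose in the same order over KO MI 1, 3 and 2 and parted in KO MI 7. The summed markers were 13.6 CPM in KO MI 1, 96.7 in KO MI 2, 17.96 in KO MI 3 and 131 in KO MI 7, and KO MI 7, with the highest sum, had the lowest Casq1. Mybpc2, alone of the 14 markers, was also lowest in KO MI 7, with 9.78, 20.4, 9.50 and 5.32 CPM in KO MI 1, 2, 3 and 7. Myh8, the perinatal skeletal myosin, reached 42.3 CPM in KO MI 2 and 58.5 CPM in KO MI 7 and was 0.363 to 5.10 CPM elsewhere. Of 14 skeletal markers 9 were tested, and all 9 had a positive fold change in KO MI against KO SH and against WT MI. At adjusted p under 0.1, 8 passed against KO SH and 4 against WT MI. Myog and Myod1 had 0 counts in all WT SH libraries and Tnnc2 and Myod1 in all KO SH libraries, and none of the 14 was at 0 throughout KO MI. Without both KO MI 2 and KO MI 7, Casq1 was called in both comparisons of KO MI. The part of skeletal muscle in the higher Casq1 was not tested beyond these values.

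**Figure D2:**
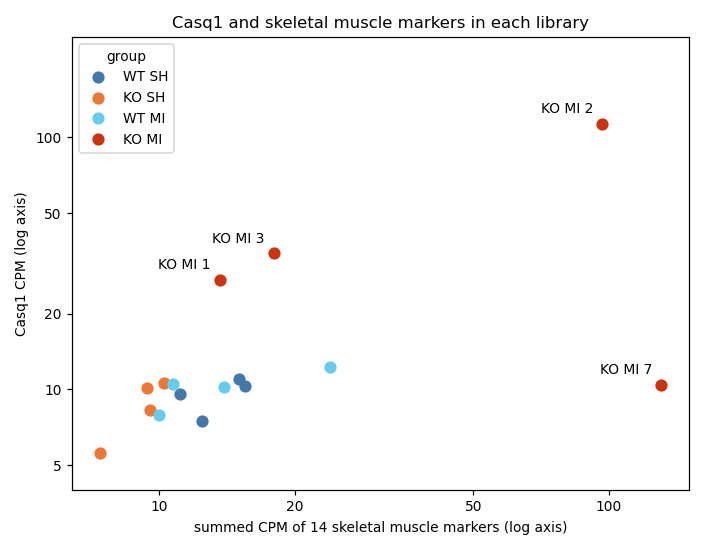
Casq1 level in CPM (vertical, log axis) against the summed CPM of 14 skeletal muscle markers (horizontal, log axis), with 1 point for each of the 16 libraries, coloured by group. KO MI 2 is high on both axes (113 and 96.7 CPM), KO MI 7 has the highest marker sum (131 CPM) with Casq1 at 10.5 CPM, and KO MI 1 and 3 have raised Casq1 at marker sums of 13.6 and 17.96 CPM.

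Atp2a2 (ENSMUSG00000029467, chr5:122591575-122640903, minus strand, GRCm39) encodes SERCA2, the pump that refills the store. It was 5094, 4627, 4732 and 4356 CPM in WT SH, 4529.9, 4459.7, 4299 and 4220.0 CPM in KO SH, then 3754, 3855, 3867 and 3903 CPM in WT MI and 3800.3, 2604, 3484 and 3535 CPM in KO MI. Injured hearts of both genotypes were below their sham groups without overlap, and KO MI 2 was the lowest of the 16 libraries. Atp2a2 fell by 0.38 on the log2 scale with injury in Lrrc10-/- mice (SE 0.09, adjusted p = 0.0097) and still fell by 0.28 without KO MI 2 (adjusted p = 0.0082). In wild-type mice it fell by 0.29 (SE 0.09, adjusted p = 0.080), a call kept in 1 of 8 fits that left out a library and highest at 0.217 without WT SH 1. KO MI against WT MI gave -0.20 (95% interval -0.37 to -0.03, adjusted p = 0.353).

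Pln (ENSMUSG00000038583, chr10:53199622-53223512, plus strand, GRCm39) encodes phospholamban, which slows the pump until it is phosphorylated. It was 1945, 2047, 2249.9 and 2031 CPM in WT SH and 2409, 2445, 2271 and 2352 CPM in KO SH. Pln was the single gene of the 10 whose KO SH libraries were all above the WT SH libraries, though the fitted difference of 0.20 (SE 0.10) was not called (adjusted p = 0.235). After injury it was 1812, 1685, 1807 and 1928 CPM in WT MI and 1928, 1233, 1629.8 and 1748 CPM in KO MI. Each injured group was below its sham group without overlap. Pln fell by 0.54 on the log2 scale, or 31.0%, in KO MI against KO SH (SE 0.10, adjusted p = 0.0027) and fell by 0.42 without KO MI 2 (adjusted p = 0.0014). The wild-type difference of -0.19 (SE 0.10) was not called (adjusted p = 0.328).

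Slc8a1 (ENSMUSG00000054640, chr17:81680534-82045891, minus strand, GRCm39) encodes the sodium-calcium exchanger NCX1. It was 492, 443, 419 and 379 CPM in WT SH, 361, 403, 385 and 372 CPM in KO SH, then 495, 543, 487 and 456 CPM in WT MI and 505, 661, 504 and 521 CPM in KO MI. KO MI was above KO SH without overlap and its highest library was KO MI 2, while WT MI overlapped WT SH. Slc8a1 rose by 0.53 on the log2 scale, or 44.1%, in KO MI against KO SH (SE 0.09, adjusted p = 0.0021) and by 0.42 without KO MI 2 (adjusted p = 0.0032). The wild-type difference was 0.19 (SE 0.09, adjusted p = 0.288).

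Jph2 (ENSMUSG00000017817, chr2:163178162-163239920, minus strand, GRCm39) encodes junctophilin 2, which holds the store against the surface membrane. It was 93.7, 91.0, 86.9 and 81.1 CPM in WT SH, 70.1, 77.9, 77.7 and 74.1 CPM in KO SH, then 73.9, 75.2, 74.7 and 71.5 CPM in WT MI and 77.0, 84.2, 74.3 and 74.0 CPM in KO MI. WT SH was above KO SH and above WT MI without overlap. Jph2 was 15.0% lower in KO SH (log2 fold change -0.23, SE 0.06, adjusted p = 0.017) and 16.3% lower in WT MI (-0.26, SE 0.06, adjusted p = 0.019), and both calls, which share the WT SH libraries, were kept in 8 of 8 fits that left out a library. In Lrrc10-/- mice the difference with injury was 0.05 (95% interval -0.06 to 0.16).

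Camk2d (ENSMUSG00000053819, chr3:126389945-126639982, plus strand, GRCm39) encodes the delta form of calcium-calmodulin kinase II, which phosphorylates phospholamban and the ryanodine receptor. It was 275, 284, 282 and 271 CPM in WT SH, 261, 258, 260.3 and 248 CPM in KO SH, then 253, 263, 253 and 259 CPM in WT MI and 275, 274, 252 and 216 CPM in KO MI. WT SH was again above KO SH and WT MI without overlap. The log2 fold changes were -0.11 in both comparisons and none passed (adjusted p = 0.297 and 0.386).

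The sham groups compare the genotypes without infarction. They also differed in Xist, which was over 100 CPM in 0 of 4 WT SH and 2 of 4 KO SH libraries. Of the 10 genes, Casq2 and Jph2 passed adjusted p under 0.1, both lower in KO SH, where 12.3% of all tested genes passed and 7.22% passed as lower. None also reached a log2 fold change of 0.5, the rule for a differentially expressed gene (DEG), which 5.01% of all genes met; DESeq2 also gave 0, and 4 of the 10 had an unadjusted p under 0.05 in edgeR, against 22.8% of all genes. The groups did not overlap for 5 of the 10 (Pln higher, Casq2, Asph, Jph2 and Camk2d lower), against 18.5% of all genes (8.35% higher and 10.2% lower). The fold change was negative in 9 of the 10, with a median of -0.15 against 0.01 for all tested genes, but when libraries were scaled to the cardiomyocyte markers, which raised all these fold changes by about 0.26, it was negative in 1 of the 10. Under that scaling Pln (0.45, adjusted p = 0.0031) and Asph (0.13, adjusted p = 0.074) were higher in KO SH and Jph2 was at 0.02. The same scaling called 8873 of all 20159 genes. As ratios to the summed markers, Ryr2, Atp2a2, Pln, Asph and Camk2d were above WT SH in KO SH without overlap. With Ttn left out of the sum only Pln was, and Casq2 was below without overlap. Of the 10 cardiomyocyte markers themselves, 9 had a negative fold change in KO SH and 7 passed adjusted p under 0.1 as lower, with a median of -0.26. In whole ventricle, fewer cells of a type and less RNA per cell cannot be told apart.

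The wild-type groups compare infarction with sham surgery in a heart of regenerative age. Here too Xist differed, at over 100 CPM in 0 of 4 WT SH and 2 of 4 WT MI libraries. Ryr2, Atp2a2, Trdn and Jph2 passed adjusted p under 0.1, all lower in WT MI, where 5.31% of all genes passed and 2.21% passed as lower. None was a DEG (2.78% of all genes) in edgeR or DESeq2, with 6 of the 10 at an unadjusted p under 0.05 in edgeR, against 16.5% of all genes. WT MI was below WT SH without overlap for 7 of the 10, all but Casq1, Casq2 and Slc8a1, against 5.94% of all genes (12.1% in either direction). Of the 10 cardiomyocyte markers, 9 had a negative fold change in WT MI (median -0.19), and 3 passed adjusted p under 0.1 as lower. The median of the 10 calcium genes was -0.16, and 0.07 when scaled to these markers. Under that scaling none of the 4 was called, and Slc8a1 (0.43, adjusted p = 0.0023) and Casq2 (0.23, adjusted p = 0.085) were higher. The same scaling called 7496 of all 20159 genes. As ratios to the summed markers, Ryr2 (log2 difference -0.10) and Atp2a2 (-0.055) were below WT SH in WT MI without overlap. Slc8a1 (0.43), Casq2 (0.23) and Asph (0.11) were above without overlap. With Ttn left out of the sum only Slc8a1 and Casq2 were apart, both above. Fibroblast markers summed to 2196 to 2572 CPM in WT SH and 2666 to 3115 in WT MI (6 of 8 with a positive fold change, 3 passing adjusted p under 0.1). Macrophage markers summed to 56.3 to 65.2 and 72.9 to 102 CPM (8 of 8 positive, 1 passing), with no marker of either list at 0 throughout a group. Their part in the result was not tested.

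Infarction in Lrrc10-/- mice gave calls for 6 of the 10 genes at adjusted p under 0.1, where 17.5% of all genes passed. Ryr2, Atp2a2, Pln and Trdn were lower (7.32% of all genes) and Casq1 and Slc8a1 higher (10.2%). Pln, Casq1 and Slc8a1 were DEGs, against 7.42% of all genes; without KO MI 2, 4 of the 10 passed adjusted p and Casq1 alone was a DEG. KO MI and KO SH did not overlap for 5 of the 10, against 14.9% of all genes. These 6 genes kept their direction and call when scaled to the cardiomyocyte markers, a scaling under which Casq2 also passed (0.29, adjusted p = 0.074). It called 2918 of all 20159 genes. Markers of other cells moved in the same comparison, and the counts are of those that passed adjusted p under 0.1. Macrophage markers were 48.7 to 56.9 CPM in KO SH and 61.8 to 134 in KO MI (7 of 8 higher), and fibroblast markers 2054 to 2258 and 2820.1 to 3161 (4 of 8 higher). Erythroid markers were 416 to 497 and 354 to 1144 (6 of 6 higher), and atrial markers 10.5 to 24.2 and 22.6 to 106 (2 higher of 3 tested, from a list of 5). Smooth muscle markers were 257 to 306 and 353 to 398 (3 of 5 higher, 1 lower). Endothelial markers were 762 to 799 and 638 to 779 (2 of 6 lower, none higher). None of these was at 0 throughout a group, and their part in the result was not tested.

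After infarction the genotypes were close in CPM for all of the 10 genes but Casq1. Casq1 was the 1 gene of the 10 that passed in KO MI against WT MI, where 3.07% of all genes passed and 1.73% were DEGs. In CPM none of the 10 separated the groups without overlap, against 6.47% of all genes. As a ratio to the summed cardiomyocyte markers, Atp2a2 was lower in KO MI without overlap (log2 difference -0.17). With Ttn left out of the sum Atp2a2 overlapped (-0.16), and Jph2 was higher in KO MI without overlap (0.11). For the other 9 genes the log2 fold changes lay between -0.20 (Atp2a2) and 0.15 (Slc8a1), and none of their 95% intervals reached beyond -0.37 or 0.32.

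Whether infarction acted differently in the genotypes was tested as an interaction, the change in Lrrc10-/- mice minus the change in wild-type mice. None of the 10 passed in edgeR, where 0.0248% of all genes did, and 4 had an unadjusted p under 0.05, against 13.6% of all genes: Jph2 (0.30, SE 0.08, adjusted p = 0.168), Casq1 (2.34, SE 0.65, adjusted p = 0.188), Slc8a1 (0.33, SE 0.13, adjusted p = 0.262) and Pln (-0.34, SE 0.14, adjusted p = 0.285). DESeq2 called Jph2 (adjusted p = 0.034) and Casq1 (adjusted p = 0.072), among 571 of 12730 genes. Scaled to the cardiomyocyte markers, edgeR called Pln (-0.56, adjusted p = 0.041) and Casq1 (2.11, adjusted p = 0.061), among 2347 of 20159 genes. The larger number of calls in Lrrc10-/- mice is therefore not by itself a difference between the genotypes.

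**Figure D3:**
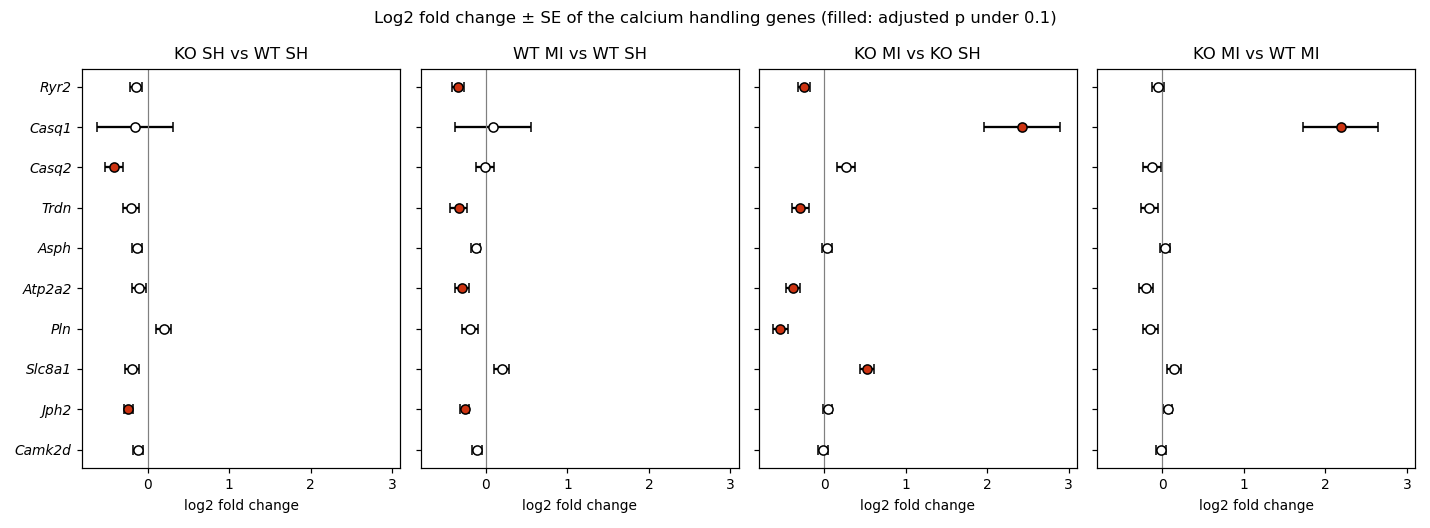
Log2 fold change with SE (horizontal axis) of each of the 10 genes in 4 comparisons of 4 libraries against 4; filled points passed adjusted p under 0.1 in edgeR. Filled points number 2 in KO SH vs WT SH, 4 in WT MI vs WT SH, 6 in KO MI vs KO SH and 1 in KO MI vs WT MI, with Casq1 far to the right in the last 2 panels.

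Ratios of 2 genes within a library do not depend on how libraries are scaled. Phospholamban counts per SERCA2 count (Pln/Atp2a2) were 0.382 to 0.476 in WT SH and 0.528 to 0.557 in KO SH, with means of 0.442 ± 0.0421 and 0.541 ± 0.0137 (SD, n = 4). The groups did not overlap (exact two-sided permutation p = 0.0286, or 0.0653 after adjustment over 16 ratio tests). After injury the ratio was 0.470 ± 0.0247 in WT MI and 0.486 ± 0.0184 in KO MI (n = 4), which overlapped. KO MI, at 0.468 to 0.507, lay below KO SH without overlap (exact permutation p = 0.0286, adjusted 0.0653).

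Exchanger counts per SERCA2 count (Slc8a1/Atp2a2) were 0.0871 to 0.0965 in WT SH and 0.0797 to 0.0903 in KO SH. Injury moved both genotypes up without overlap, to 0.117 to 0.141 in WT MI and 0.133 to 0.254 in KO MI, and each difference had exact permutation p = 0.0286 (adjusted 0.0653). The highest ratio was again in KO MI 2, and the other KO MI libraries were at 0.133, 0.145 and 0.147. KO MI and WT MI overlapped (exact permutation p = 0.0571, adjusted 0.0914).

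Triadin counts per calsequestrin 2 count (Trdn/Casq2) were 1.077 to 1.28 in WT SH and fell to 0.865 to 1.03 in WT MI without overlap (exact permutation p = 0.0286, adjusted 0.0653). They were 1.25 to 1.42 in KO SH and spread from 0.581 in KO MI 2 to 1.27 in KO MI 7, which overlapped (exact permutation p = 0.0571, adjusted 0.0914). The calsequestrin isoform ratio (Casq1/Casq2) stayed between 0.0300 and 0.0593 in WT SH, KO SH and WT MI. In KO MI it was 0.128, 0.440, 0.167 and 0.0613, above KO SH and WT MI without overlap (exact permutation p = 0.0286 for each, adjusted 0.0653), with KO MI 7 only just above.

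**Figure D4:**
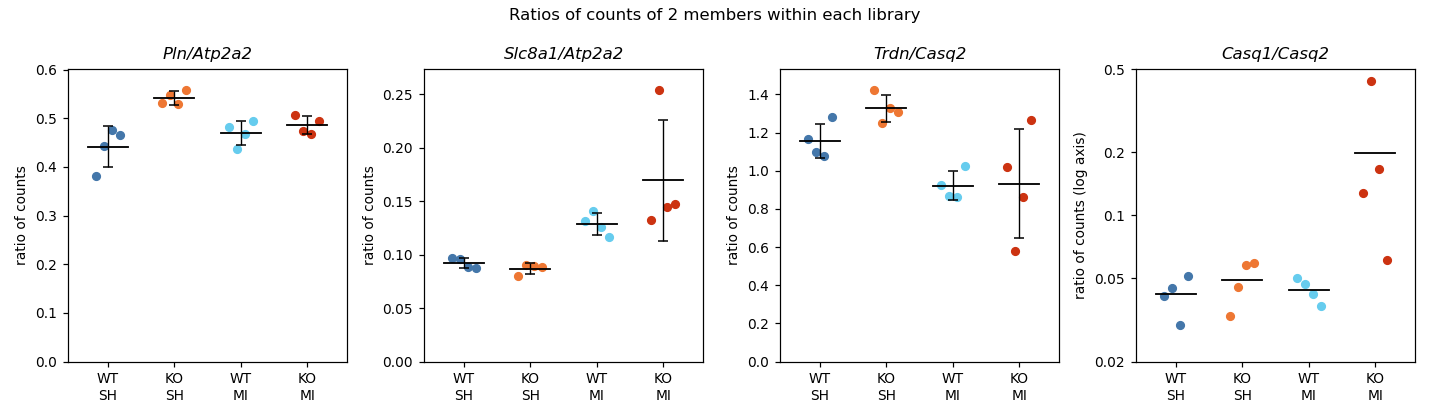
Ratio of counts of 2 genes within each library (vertical axis) by group, with 1 point per library, a line at the mean and bars of 1 SD (n = 4); Casq1/Casq2 is on a log axis and has no SD bar. KO SH is above WT SH for Pln/Atp2a2, both injured groups are above their sham groups for Slc8a1/Atp2a2, WT MI is below WT SH for Trdn/Casq2, and KO MI reaches 0.440 for Casq1/Casq2.

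Levels of different genes were compared per length, as CPM per kilobase of union exons. In WT SH the order was Atp2a2 (384 CPM per kilobase), Pln (336), Ryr2 (149), Casq2 (40.9), Slc8a1 (22.8), Trdn (12.8), Jph2 (12.7), Camk2d (10.4), Asph (9.87) and Casq1 (1.55). Atp2a2 and Pln overlapped, as did Trdn and Jph2, and Camk2d and Asph, while the other neighbours did not. In KO SH Pln (384 CPM per kilobase) came before Atp2a2 (358), again with overlap. Casq1 was last in every group, also in KO MI, where it averaged 7.49 CPM per kilobase. The order of the middle genes depends on the length used, and 23 of 40 positions changed with the longest transcript in place of the union of exons.

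A wider list of 64 calcium genes, of which 61 were tested, places these values among related genes by role; Ryr1, Jsrp1 and Strit1 did not pass the filter. In KO SH against WT SH, 13 of 61 passed adjusted p under 0.1 (12.3% of all genes tested), with 12 lower (7.22% of all). The DEGs numbered 2 (5.01% of all), both in the release unit. There 7 of 16 passed as lower, and 14 of 16 had a negative fold change, against 9881 of all 20159 genes. S100a1, a calcium-binding partner of the release channel and the pump, was 188, 158, 175 and 96.9 CPM in WT SH and 95.5, 104, 103 and 104 CPM in KO SH, which overlap through WT SH 4 (-0.61, SE 0.17, adjusted p = 0.042). Hrc, the histidine-rich calcium-binding protein of the store, was 436, 299.8, 301 and 281 CPM in WT SH and 235, 229.7, 228 and 237 CPM in KO SH without overlap (-0.51, SE 0.16, adjusted p = 0.069). Without WT SH 1 neither passed (adjusted p = 0.151 and 0.258). S100a1 also did not pass without WT SH 3 (0.105) or KO SH 1 (0.108), and Hrc did not without any 1 of the KO SH libraries (0.131 to 0.136), in a fit robust to outlying dispersions (0.123) or with an Xist term (0.130). Scaled to the cardiomyocyte markers neither passed (adjusted p = 0.110 for S100a1 and 0.228 for Hrc). The lowest p belonged to Atp2b1, a calcium pump of the surface membrane (-0.29, adjusted p = 0.0016), Tmem38a, a potassium channel of the store (-0.37, adjusted p = 0.0051), and Pde4d, a cyclic AMP phosphodiesterase (-0.38, adjusted p = 0.0072), and the 1 gene that rose was Cacnb2, a subunit of the L-type calcium channel (0.29, adjusted p = 0.0095).

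In WT MI against WT SH, 2 of 61 passed (5.31% of all genes tested), Tmem38a (-0.24, adjusted p = 0.083) and Speg, a kinase at the junction (-0.18, adjusted p = 0.086), none as a DEG, and the next lowest p was that of Ppp3ca, a calcineurin subunit (-0.14, adjusted p = 0.114). In edgeR 9 of the 61 had an unadjusted p under 0.05 there, against 16.5% of all genes tested. In KO MI against KO SH 15 of 61 passed (17.5% of all genes tested), 12 of them higher (10.2% of all), and 4 were DEGs (7.42% of all), all higher.

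Ryr3, a ryanodine receptor that is scarce in ventricle, had 2.79, 3.90, 2.12 and 1.36 CPM in KO MI against 0.383, 0.648, 0.814 and 1.05 CPM in KO SH without overlap (1.82, SE 0.36, adjusted p = 0.0049). Rcan1, an inhibitor of calcineurin, was 42.3, 44.5, 47.8 and 46.0 CPM in KO SH and 56.2, 113, 62.2 and 48.1 CPM in KO MI (0.63, SE 0.18, adjusted p = 0.033), and its rise was 0.30 without KO MI 2 (adjusted p = 0.080); with only these groups fitted it did not pass (adjusted p = 0.114). Mcub, the inhibitory subunit of the mitochondrial calcium uniporter, was 0.609, 0.513, 0.459 and 0.498 CPM in KO SH and 0.651, 0.866, 1.66 and 1.12 CPM in KO MI (1.04, SE 0.32, adjusted p = 0.045), and was not called without KO MI 3 (0.74, adjusted p = 0.176) or without KO SH 3 (adjusted p = 0.109). Atp2a1, the skeletal muscle form of the pump, had 6, 0, 6 and 8 counts in KO SH, 3, 30, 8 and 3 in WT MI and 3, 233, 18 and 210 in KO MI. The high Atp2a1 counts were in KO MI 2 and KO MI 7, the libraries with the highest skeletal muscle markers, and it passed against KO SH (adjusted p = 0.012) and against WT MI (adjusted p = 0.069), the latter not without KO MI 2 (0.170), KO MI 7 (0.117), WT MI 1 (0.203), WT MI 3 (0.184) or WT MI 4 (0.201), in that robust fit (0.173) or with only these groups fitted (0.311). Without both KO MI 2 and KO MI 7 it passed in neither (adjusted p = 0.671 and 0.968). Srl, sarcalumenin, a calcium-binding protein of the store, rose by 0.40 (adjusted p = 0.0087), and Atp2b1 by 0.21 (adjusted p = 0.010).

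In KO MI against WT MI, 1 of 61 passed, Atp2a1 (3.07% of all genes tested). The next lowest p were those of Pde4d (-0.26, adjusted p = 0.115) and Ryr3 (0.98, adjusted p = 0.186). In the interaction 0 of 61 passed in edgeR (0.0248% of all), and 14 had an unadjusted p under 0.05 (13.6% of all). The lowest p were those of Smdt1, a subunit of the mitochondrial uniporter (0.52, adjusted p = 0.156), and Srl (0.48, adjusted p = 0.171).

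**Figure D5:**
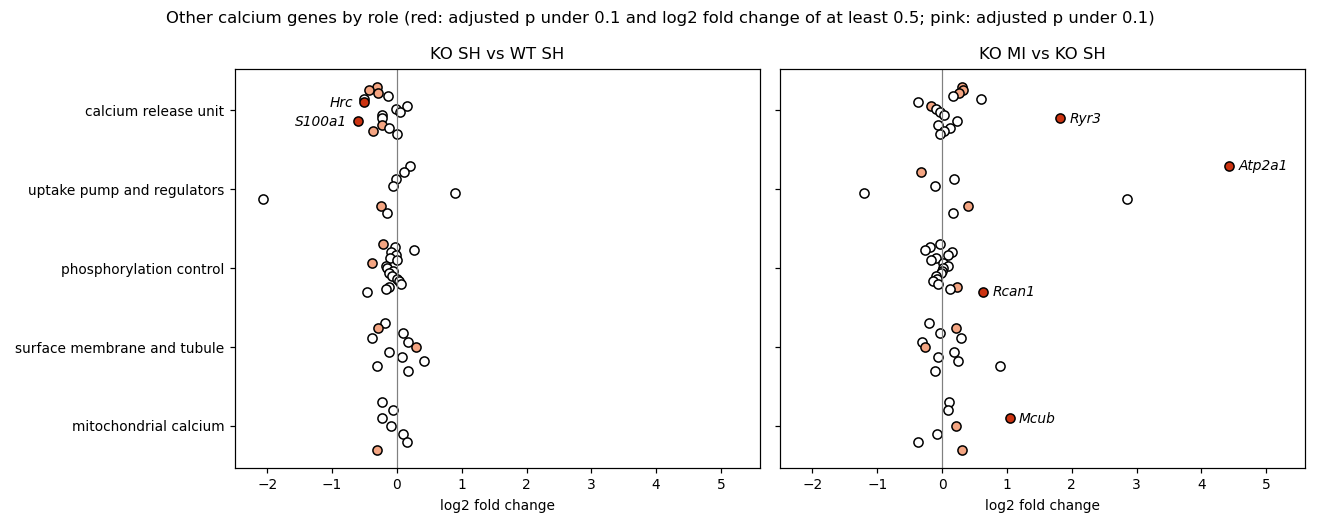
Log2 fold change (horizontal axis) of the 61 tested genes of the wider calcium list, by role (rows), in KO SH vs WT SH and KO MI vs KO SH; each point is 1 gene, and colour marks those that passed adjusted p under 0.1. The labelled DEGs are Hrc and S100a1, lower in the first comparison, and Ryr3, Atp2a1, Rcan1 and Mcub, higher in the second.

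Across the 16 libraries, which share the group differences above, Pearson correlations of log2 CPM are given as a description. Among the 10 genes the highest were Atp2a2 with Trdn (0.94), Ryr2 with Atp2a2 (0.92) and Ryr2 with Trdn (0.87), and the lowest was Pln with Slc8a1 (-0.93). Casq1 had -0.81 with Atp2a2 and with Pln. Asph and Jph2 had 0.83. Casq2 was near 0 with Ryr2 (0.03) and with Trdn (0.01).

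Of all tested genes with a mean of at least 1 CPM, Fyco1 had the pattern most like Ryr2 (0.964) and Atp2a2 (0.978), Abcc9 was most like Pln (0.985), Ston1 most like Casq1 (0.969), Slc16a1 most like Casq2 (0.940), Nap1l1 most like Slc8a1 (0.950), Rock1 most like Trdn (0.954), Pacsin2 most like Asph (0.907), Srf most like Jph2 (0.922) and Adk most like Camk2d (0.934). Sspn (0.942) and Tjp1 (0.934) followed for Ryr2, Ky (0.955) for Atp2a2, Ulk1 (0.965) and Tet1 (0.960) for Pln, Tgm2 (0.953) and C1qtnf6 (0.945) for Casq1, and Tgfb3 (0.947) for Slc8a1. For Casq2 they were Mrfap1 (0.934) and Srsf9 (0.914), for Asph Ppp1r2 (0.905) and Nfe2l2 (0.895), for Jph2 Dgcr6 (0.883) and Akt1 (0.880), and for Camk2d Kpna1 (0.932) and Tuba8 (0.931). For Trdn they were Spop (0.948) and D830005E20Rik (0.942), which lies within the Trdn span on the opposite strand and averaged 65.6 CPM against 226 for Trdn. The strand setting of the counting is not given in the sources used here, so reads of this pair may not be told apart. Genes of the same kind overlap Ryr2 (Gm47493, same strand, 201 CPM), Atp2a2 (Gm43361, opposite strand, 109.6 CPM) and Pln (Gm47644, opposite strand, 95.6 CPM).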

How the data were processed

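Ventricle RNA was sequenced as 16 stranded, rRNA-depleted libraries. The authors deposited RSEM expected counts per gene, as whole numbers without normalization. The paper's methods name Skewer, STAR and RSEM, while the submitters' processing notes name cutadapt (3.4), HISAT2 (2.2.1) and RSEM (1.1.17) on GRCm39; which made the table was not settled here. Gene names came from GENCODE M39 (GRCm39), which matched 47772 of 51912 identifiers. RSEM divides reads shared by several genes.

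The 20159 genes whose counts added up to 10 or more in every group were tested in R (4.3.3) with edgeR (4.0.16), TMM scaling, 1 term per group over 16 libraries, the quasi-likelihood test and Benjamini-Hochberg adjustment over all tested genes. The 95% intervals are the fold change with 1.96 SE to either side, a normal approximation that is somewhat narrower than the quasi-likelihood test implies. Exact permutation tests used log2(CPM + 0.05), and 0.5 was added to each count in ratios. A floor of 3 counts was 0.0577 to 0.0858 CPM and covers counting error only. The script was tested on simulated data. Alternatives were DESeq2 (1.42.0), other scalings, filters, a robust dispersion fit, a replicate block, an Xist term and left-out libraries. The 10 genes, the wider list and the markers were chosen with earlier results of these data known. From the wider list, DEGs and the 3 genes of lowest p per comparison were named (Cacnb2, singled out after its value was seen, was added), and the 3 most similar genes for each member; a few genes that these rules name are not reported here. Promoters came from a RefSeq table on GRCm38.p6, a build other than that of the counts. GO terms were not analysed here.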

Additional observations from a re-analysis of the deposited data

Results flagged for a closer look

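In 80 groups of 4 libraries (calcium genes and ratios), 4 had 1 library so far from the others that its gap, as a share of the range of the group, exceeded Dixon's 95% critical value, a criterion that chance meets in about 1 of 20 groups, or about as often as seen here. Slc8a1 was highest in KO MI 2, at 660.8 CPM, with the other KO MI libraries at 504 to 521 CPM. The Slc8a1/Atp2a2 ratio was highest in the same library, at 0.2537. Hrc was highest in WT SH 1, at 436.5 CPM, with the others at 281 to 301 CPM. S100a1 was lowest in KO SH 1, at 95.47 CPM, where the other KO SH libraries lay at 103 to 104 CPM.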

How the results depend on the processing

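Of the fold changes of single genes recomputed under the alternatives, 947 kept direction and side of the threshold, 38 lost and 23 gained a call, and 42 changed sign. Scaled to the cardiomyocyte markers, the changed values (log2) in KO SH against WT SH were Ryr2 0.12, Atp2a2 0.16, Casq1 0.11, Slc8a1 0.072, Trdn 0.061, Asph 0.13, Jph2 0.024 and Camk2d 0.14, of which Jph2 had been called and Asph became so. With the same scaling they were Pln 0.036, Casq2 0.23 (newly called), Asph 0.11 and Camk2d 0.12 in WT MI against WT SH, Camk2d 0.00013 in KO MI against KO SH and 0.023 in KO MI against WT MI, and Ryr2 -0.13, Trdn -0.18, Asph -0.057 and Camk2d -0.12 in the interaction. With the replicate block Camk2d was 0.046 in KO MI against either group and Trdn -0.060 in the interaction, and with an Xist term Casq1 was -0.10 in WT MI against WT SH. Without KO MI 2 and 7, Ryr2 was 0.068 and Camk2d 0.028 in KO MI against WT MI, Camk2d 0.027 in KO MI against KO SH and Atp2a2 0.010 in the interaction. With 1 library left out, the ranges that crossed 0 were Casq1 -0.27 to 0.0078 in KO SH against WT SH; Ryr2 -0.12 to 0.0040, Asph -0.014 to 0.078 and Camk2d -0.056 to 0.055 in KO MI against WT MI; Casq1 -0.011 to 0.19 and Casq2 -0.10 to 0.063 in WT MI against WT SH; Asph -0.014 to 0.078 and Camk2d -0.057 to 0.054 in KO MI against KO SH; and Atp2a2 -0.17 to 0.011 and Trdn -0.036 to 0.14 in the interaction. The cause was not tested. The scaling to markers and the fits without both KO MI 2 and KO MI 7 were chosen after seeing the data.

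For the 10 genes, calls at adjusted p under 0.1 in KO SH against WT SH were 6 when only these groups were fitted and 1 to 2 with 1 library left out, and DEGs were 0 to 1 (Casq2, without WT SH 4). In KO MI against WT MI both counts were 0 with only these groups fitted. In WT MI against WT SH the calls were 2 at adjusted p under 0.05, 2 with an Xist term, 2 scaled to the markers and 2 to 4 with 1 library left out. In KO MI against KO SH the DEGs were 1 to 3 with 1 library left out and 1 without KO MI 2 and 7. In the interaction DEGs were 1 in DESeq2, 1 with the replicate block, 2 scaled to the markers, 1 without KO MI 2 and 7 and 0 to 1 with 1 library left out, and calls were 2, 2, 2, 2 and 0 to 2 in that order.

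For the wider list, DEGs in KO SH against WT SH were 1 at adjusted p under 0.05, with at least 10 counts in every library, in the robust fit and with the replicate block, and 0 to 3 with 1 library left out. In KO MI against WT MI they were 2 without a filter, 0 at adjusted p under 0.05, with 10 counts in every library, in the robust fit and with only these groups, 0 without KO MI 2 and 7 and 0 to 2 with 1 library left out. They were 2 in WT MI against WT SH scaled to the markers and 7 in KO MI against KO SH without a filter. In the interaction they were 1 in DESeq2, 4 with the replicate block, 1 without KO MI 2 and 7 and 0 to 4 with 1 library left out (4 without KO MI 7). The cause of these shifts was not tested.

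Same-numbered libraries did not deviate together (r from -0.06 to 0.11, median 0.01, n = 21 pairs), and 4 of 15 correlated best with their own number, so the numbers were not taken as a pairing. KO MI 7 has no partner in the block. Over all genes, calls at adjusted p under 0.1 in the interaction were 5 in edgeR, 1483 with the block, 571 in DESeq2, 2347 scaled to the markers and 41 without a filter, and in KO MI against WT MI 619 became 1108 with the block and 261 with only these groups. In WT MI against WT SH 1071 became 1656 with the block and 7496 scaled to the markers, and in KO SH against WT SH 2486 became 8873 scaled to the markers. All ratios moved by less than 1 SD, but leaving out 1 of 4 libraries cannot move a group mean by that much. Whether the ratios rest on single libraries was therefore not tested by this criterion. Depth limits Atp2a1, with 0 to 8 counts in KO SH.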
